A study of Mus musculus with 16 samples.

Results

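The livers described here came from mice dosed with emodin whose interferon-stimulated genes stood at the vehicle level. They were chosen by 1 measured value, the level of Isg15, a ubiquitin-like protein switched on by interferon. That level, in CPM (the gene's count over the library's total count, scaled to 1000000), had to lie under 20. Of the 8 emodin libraries, 4 met that limit, out of 16 libraries in all: emodin 1 held 5.36 CPM of Isg15, emodin 3 held 4.83, emodin 6 held 6.64 and emodin 7 held 4.76. The limit fell in a gap, since the nearest emodin library above it, emodin 2, held 66.9 CPM, and emodin 5, 8 and 4 held 116, 242 and 282. The 8 vehicle libraries held 3.52 to 7.45 CPM. All mice were wild-type C57BL/6 animals. The emodin group received 400 mg/kg of emodin into the stomach for 3 weeks in 0.5% CMC-Na, the vehicle group received the CMC-Na carrier alone, and RNA was taken from the liver after the last dose. The labels do not say that each library is an animal of its own, so the p-values below measure the spread between these libraries, each of which is called a liver here.

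Emodin is an anthraquinone of rhubarb and other medicinal plants, and the study concerned the detoxifying cytochrome P450 enzymes and inflammatory signalling in the liver injury it causes. Hepatocytes take up such compounds, oxidise them with P450 enzymes that draw electrons from the reductase Por, conjugate them and pass them to bile. The same cells make most plasma proteins, and under interleukin-6 and interleukin-1 they switch to the acute phase proteins through STAT3, C/EBP and NF-kB, whereas type I interferon acts through other STAT factors on a separate set that includes Isg15. Sterol synthesis, amino acid breakdown, growth hormone signalling and the circadian clock set much of the rest of the hepatocyte programme.

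The 12 libraries compared held 28683413 to 48165643 counts each. Hepatocyte markers summed to 94137 to 107882 CPM in the chosen emodin livers and 98693 to 129974 CPM in the vehicle livers. Emodin 7 and vehicle 2 carried skeletal muscle RNA: their sums of 16 muscle markers were 1411 and 4836 CPM, while the other 10 livers lay between 18.4 and 35.4 CPM, so results are also given without both where that matters. Because the livers were chosen by Isg15, genes that track Isg15 among emodin livers have differences whose size the choice itself bears on. For the same reason the interferon genes are described without a test.

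Levels below are CPM after TMM scaling over all 16 libraries, and differences are log2 fold changes, emodin minus vehicle, ± standard error (SE) from edgeR's quasi-likelihood test of 4 emodin against 8 vehicle livers. Of 14821 entries tested, 1008 (6.8%) passed an adjusted p of 0.05 (Benjamini-Hochberg): 573 (3.87%) were higher and 435 (2.94%) lower in the emodin livers. At least 2-fold differences were few, with 71 entries higher (0.479%) and 59 lower (0.398%), and the median difference of the calls was 0.49 for rises and -0.47 for falls. All 4 emodin livers lay above all 8 vehicle livers in 471 entries (3.18%) and below all of them in 378 (2.55%), whether called or not. Leaving out emodin 7 and vehicle 2 gave 584 higher (3.92% of 14895) and 427 lower calls (2.87%), of which 419 and 292 were among the calls above. Single livers moved the count: 435 entries were called without emodin 3 (419 of them among the calls above), 471 without emodin 6 (454) and 668 without emodin 1 (606), and the lower calls numbered 287 without vehicle 3 and 274 without vehicle 5. Scaling by total counts gave 375 higher and 685 lower calls, so the split between rises and falls depended on the scaling. All 8 emodin livers against the same vehicle livers gave 1884 calls of 14308 entries (13.2%), 1102 higher (7.7%) and 782 lower (5.47%), with 376 (2.63%) at least 2-fold.

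**Figure D1:**
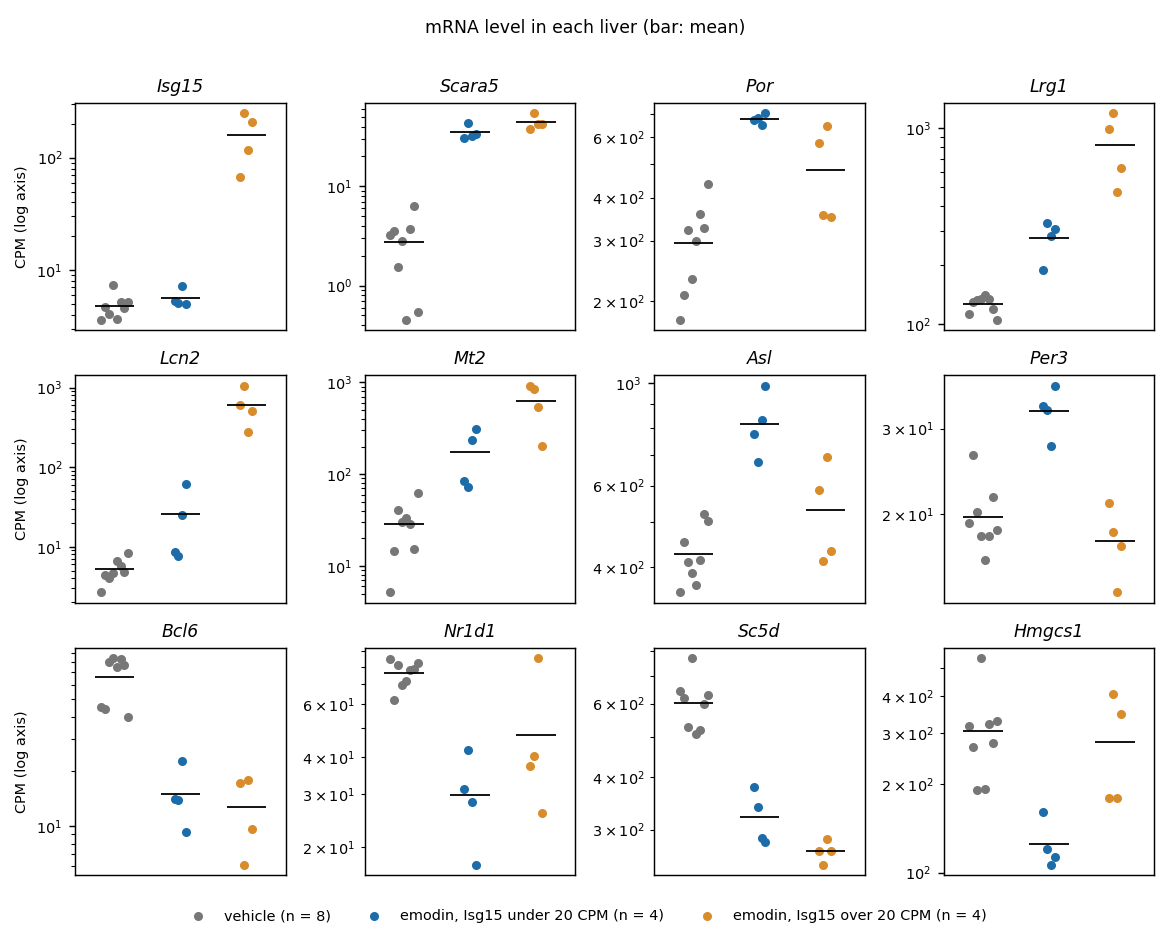
Level of 12 genes in each liver, in CPM on a log axis. Points are single livers, the bar is the mean of a group, and the 3 groups are vehicle (8 livers), emodin with low Isg15 (4) and the other emodin livers (4). Isg15, which chose the livers, lies at the vehicle level in the 4 chosen ones, while Scara5, Por, Asl and Lrg1 lie above every vehicle liver and Bcl6, Nr1d1 and Sc5d below every one.

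The interferon genes as a group stayed near the vehicle level in the chosen livers. The choice set a limit on Isg15 alone, and how far it set the levels of the other interferon genes was not tested. The 34 genes of that list summed to 828 to 1094 CPM against 845 to 1318 CPM in the vehicle livers and 2617 to 5020 CPM in the other 4 emodin livers. Their median difference was 0.09, with 22 above 0 and 12 below, and they ran from -0.63 for the chemokine Cxcl10 to 0.66 for the transcription factor Irf7. Ifit1, which binds viral RNA, stood at 10.1, 10.98, 8.31 and 11.6 CPM in emodin 1, 3, 6 and 7 against 4.93 to 8.51 CPM in the vehicle livers. Emodin 6 alone overlapped the vehicle range for Ifit1, and the other emodin livers held 114 to 278 CPM.

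Scara5, a scavenger receptor that takes up ferritin, had the largest rise of the annotated genes outside chromosome 4. It stood at 30.9, 43.5, 32.1 and 33.9 CPM in emodin 1, 3, 6 and 7 against a vehicle range of 0.454 to 6.3 CPM with a median of 3.01. The groups were wide apart, the difference was 3.66 ± 0.52 (12.7-fold, edgeR adjusted p = 0.00323), and it was 3.75 without the muscle-bearing livers (edgeR adjusted p = 0.0114). Scara5 lies at chr14:65666403-65764826 (mm10). The other 4 emodin livers held 37.5 to 54.9 CPM, which overlaps the range of the chosen livers. The transcript E030018B13Rik was also above the vehicle range in each chosen liver, at 1.11, 2.27, 1.34 and 3.89 CPM against 0.1 to 0.534 CPM (3.19 ± 0.42, edgeR adjusted p = 0.000767). Of 16 iron genes tested, 2 were higher (12.5%, against 3.87% over all entries), Scara5 and the siderophore-binding protein Lcn2, and none lower. Without emodin 6 or without emodin 7 only 1 remained past the threshold.

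Of 27 acute phase proteins tested, 14 were higher in these livers (background 3.87%), 0 were lower and 13 did not pass. Of the 27, 23 lay above 0, and the list's median difference was 0.53 against -0.01 over all entries. The list summed to 22822, 27668, 28824 and 30203.5 CPM in emodin 1, 3, 6 and 7, to 19666.5 to 24809 CPM in the vehicle livers and to 42825 to 71402 CPM in the other emodin livers. Emodin 1 thus lay inside the vehicle range and the other 3 above it, all below the emodin livers with high interferon genes. Counts of higher members fell to 9 without emodin 3, 8 without emodin 6, 7 without emodin 7 and 5 without both muscle-bearing livers, while the comparison of all 8 emodin livers with the same vehicle livers gave 21.

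Within the list, a steady part and a variable part could be seen. Lrg1, a leucine-rich plasma glycoprotein, stood at 189, 327, 280.3 and 307 CPM against 105 to 141 CPM, median 131, in the vehicle livers (1.13 ± 0.12, 2.2-fold, edgeR adjusted p = 0.000303), with no overlap. Saa4, the constitutive serum amyloid A of lipoprotein particles, stood at 469.8, 505, 661 and 463 CPM against 188 to 302 CPM, median 238 (1.14 ± 0.12, edgeR adjusted p = 0.000319). Serpina3n, a protease inhibitor, stood at 426, 434, 508 and 555 CPM against 222 to 330.1 CPM, median 258 (0.86 ± 0.10, edgeR adjusted p = 0.000395). Haptoglobin (Hp), which binds free haemoglobin, ranged from 2337 in emodin 1 to 3436 CPM in emodin 7 and from 1724 to 2016 CPM in the vehicle livers (0.64 ± 0.09). For these 4 genes every chosen liver lay above every vehicle liver. Saa1 and Lcn2 varied much more between livers. Saa1, the main inducible serum amyloid A, stood at 61.3, 71.9, 192 and 394 CPM against a vehicle median of 33.5 and maximum of 66.6 (2.26 ± 0.47, edgeR adjusted p = 0.0185), so emodin 1 overlapped the vehicle range. Lcn2 stood at 8.53, 7.65, 24.9 and 60.99 CPM against 2.68 to 8.4 CPM, median 4.77 (2.30 ± 0.50, edgeR adjusted p = 0.0235), with emodin 3 inside the vehicle range. Emodin 7, a muscle-bearing liver, was the highest for both, and emodin 6 the next. Saa1 lost its call without emodin 6 (2.23) and without both muscle-bearing livers (1.51), and Lcn2 without emodin 6 (2.31) or emodin 7 (1.40).

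The other called members were Orm1, Orm3, Apcs, Itih3, Itih4, Serpina3m, Lbp and Steap4, which include the lipopolysaccharide carrier Lbp and the metalloreductase Steap4. Apart from Orm3 their differences lay between 0.48 for Itih4 and 0.63 for Itih3. Orm1 stood at 467, 806, 1116 and 1053 CPM against 496 to 629 CPM (0.61, edgeR adjusted p = 0.0485), with emodin 1 below every vehicle liver, and its call was lost in 11 of the 12 fits that left out 1 liver (lowest 0.46, without emodin 6); it held without emodin 1 (0.82). Saa2 (2.02 ± 0.60, edgeR adjusted p = 0.0737) and the orosomucoid Orm2 (2.34, edgeR adjusted p = 0.059) missed the threshold, and each passed it without 1 liver: Saa2 without vehicle 8 (2.33) and Orm2 without emodin 1 (2.71). The fibrinogen chain Fga (0.00) and Crp (-0.14) stood at the vehicle level. The orosomucoids are near-identical neighbours, and the serum amyloid genes are close copies as well, so reads may be split among them by the counting.

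Few receptors and regulators upstream of these proteins were called. Il1r1, the interleukin-1 receptor, stood at 81.3, 109.8, 161 and 108 CPM against 38.0 to 68.0 CPM, median 59.3, in the vehicle livers (1.02 ± 0.18, edgeR adjusted p = 0.00534). It was the 1 called gene of 15 cytokine receptors, STAT3 and C/EBP members (6.67% higher, background 3.87%). Every chosen liver lay above every vehicle liver for it. Of 23 NF-kB components and targets tested, 3 were higher (13.0%, background 3.87%) and 0 lower, with a median of 0.04. Bcl3, a nuclear partner of NF-kB, stood at 13.4, 18.2, 17.5 and 13.0 CPM against 6.46 to 11.1 CPM, median 8.26 (0.88 ± 0.14, edgeR adjusted p = 0.0022). The IkB family members Nfkbib (0.48) and Nfkbiz (0.47) were the other two. Without emodin 6 only Bcl3 remained, Nfkbib being then at 0.36. Nfkbiz also lost its call without emodin 3 (0.46), emodin 6 (0.46) or emodin 7 (0.42), and without vehicle 3, 4, 5 or 6 (0.46 to 0.48). Of 19 NLRP3 inflammasome and pyroptosis genes none passed in either direction (background 6.8% in both together), with a median of 0.01. Nlrp3 was at 0.48 (edgeR adjusted p = 0.448), Casp1 at -0.16 (0.696), Il1b at 0.45 (0.535), Il18 at 0.14 (0.54), Nfkb1 at -0.23 (0.185) and Rela at 0.04 (0.745), each with its edgeR adjusted p in brackets.

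Of 31 complement and coagulation factors tested, also made by hepatocytes, 7 were higher (background 3.87%), 1 was lower (2.94%) and 23 did not pass. Of the 31, 28 lay above 0, and the median was 0.15. F7, the clotting factor that starts the extrinsic pathway, stood at 81.8, 86.4, 80.9 and 84.2 CPM against 62.1 to 75.2 CPM (0.30 ± 0.06, edgeR adjusted p = 0.00682), a small difference with very little spread. C8b, a subunit of the membrane attack complex, stood at 352, 394, 391 and 254 CPM against 189.7 to 279.8 CPM (0.59 ± 0.13, edgeR adjusted p = 0.0172), with emodin 7 inside the vehicle range. The others called higher were F12, C8a, C2, C4b and Masp2 (0.20 to 0.46), and plasma kallikrein Klkb1 was lower (-0.30). The higher calls numbered 3 without emodin 1, 1 without emodin 3, 1 without emodin 6 and 4 without vehicle 5. C8b lost its call without emodin 3 (0.52) or emodin 6 (0.53), C4b without emodin 3 (0.39), 6 (0.43) or 7 (0.39), and no gene was called lower without emodin 1, 6 or 7. Scaling by total counts left 4 higher calls.

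Albumin took a smaller mean share of the counts in the chosen livers, although emodin 7 lay inside the vehicle range of 7.43 to 9.54%. The share was 6.72, 6.78, 6.04 and 7.47% in emodin 1, 3, 6 and 7, or 6.75 ± 0.583% (SD, n = 4), against 8.34 ± 0.82% (SD, n = 8) in the vehicle livers (exact two-sided permutation test, p = 0.00808). Without the muscle-bearing livers the means were 6.52 and 8.44% (exact permutation p = 0.0167). As a gene after TMM scaling Alb did not pass (-0.25, edgeR adjusted p = 0.159).

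The 2 ubiquitous metallothioneins, small proteins that bind zinc and copper and are induced by metals, glucocorticoids and inflammation, rose in the chosen livers. Mt2 stood at 83.4, 73.2, 233 and 309 CPM against a vehicle range of 5.19 to 62.2 CPM with a median of 29.3 (2.61 ± 0.58, 6.09-fold, edgeR adjusted p = 0.026). Mt1 stood at 138, 135, 316 and 334 CPM against 19.3 to 128 CPM, median 65.5 (1.80 ± 0.43, edgeR adjusted p = 0.0353). Emodin 6 and 7 were the high livers for both genes, while emodin 1 and 3 lay just above the highest vehicle liver. Both calls rested on few livers: Mt2 lost its call without emodin 6 (2.44), without emodin 7 (2.18) and without both muscle-bearing livers (2.08), and Mt1 without emodin 3 (1.98), 6 (1.61) or 7 (1.57) and without vehicle 2, 4, 5, 6 or 7 (1.71 to 1.82). No other member of the 12 metallothionein and zinc transporter genes tested was called, so 16.7% of that list was higher (background 3.87%). The metallothioneins were also the 2 called members of 17 glucocorticoid targets (11.8%). The 250 bases before each start site are shown, from RefSeq on GRCm38.p6, because the genes moved together and sit side by side on chromosome 8. Capitals mark matches on either strand to TGCNCNC, a pattern looser than the core of the metal response element, which asks for A or G after TGC. The marked Mt2 stretches TGCTCTC and GGGAGCA (read on the other strand) fall outside that core.
Mt2 (chr8:94172368-94172617, + strand): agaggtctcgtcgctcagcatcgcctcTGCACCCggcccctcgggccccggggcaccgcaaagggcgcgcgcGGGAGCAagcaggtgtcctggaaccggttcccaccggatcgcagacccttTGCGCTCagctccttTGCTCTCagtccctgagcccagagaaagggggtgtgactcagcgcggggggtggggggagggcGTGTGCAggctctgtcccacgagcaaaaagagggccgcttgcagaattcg
Mt1 (chr8:94178839-94179088, + strand): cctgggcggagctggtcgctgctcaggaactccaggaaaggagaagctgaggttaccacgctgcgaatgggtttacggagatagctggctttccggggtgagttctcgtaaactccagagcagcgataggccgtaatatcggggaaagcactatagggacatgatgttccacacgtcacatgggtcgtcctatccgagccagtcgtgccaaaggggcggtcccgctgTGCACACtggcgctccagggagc
The Mt2 window holds 5 matches and the Mt1 window 1. Of 32851 mouse promoter windows of that length, 44.4% hold at least 1 match and 1.28% hold at least 4. For this looser pattern the count in the Mt2 window is thus rare and that in the Mt1 window common. The share of windows with the narrower core was not counted. A match describes the letters and does not show a bound site.

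Among the genes of drug metabolism, Por, the electron donor of every microsomal P450 enzyme, gave the plainest difference. Por stood at 669.7, 679, 650.3 and 704 CPM in emodin 1, 3, 6 and 7 against a vehicle range of 177 to 437 CPM with a median of 311 (1.20 ± 0.19, 2.29-fold, edgeR adjusted p = 0.00404). The chosen livers were nearly level with each other and clear of every vehicle liver, and the other emodin livers held 352 to 643 CPM. Por lies at chr5:135670033-135735326 (mm10). The xenobiotic receptor PXR (Nr1i2) stood at 101, 108, 92.6 and 119 CPM against 60.02 to 92.7 CPM (0.46, edgeR adjusted p = 0.0231), with emodin 6 just under the highest vehicle liver. Together with Arnt, the partner of the aryl hydrocarbon receptor (0.38), these were the 3 called members of the AhR, CAR and PXR list. Of its 18 genes 16.7% were thus higher (background 3.87%), and the median was 0.21. Nr1i2 lost its call without emodin 3 (0.44) or emodin 7 (0.39), and 1 member was called without both muscle-bearing livers.

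Of 65 P450 enzymes tested, 4 were higher (6.15%, background 3.87%), 0 were lower and 61 did not pass, and the median was -0.03. Cyp3a13, a member of the steroid and drug oxidising CYP3A family, stood at 241, 267, 277 and 420.4 CPM against 148 to 221 CPM, median 169 (0.79 ± 0.14, edgeR adjusted p = 0.00424), with no overlap. The fatty acid hydroxylase Cyp4f15 (0.33), the sterol hydroxylase Cyp27a1 (0.27) and the coumarin hydroxylase Cyp2a5 (0.72) were the other three. Cyp4f15 lost its call without emodin 3 (0.33), and Cyp27a1 and Cyp2a5 without each emodin liver in turn (0.27 in each case for Cyp27a1, and 0.62 to 0.80 for Cyp2a5). Vehicle livers mattered too, Cyp27a1 being lost without vehicle 1, 3, 4, 5, 6 or 8 (0.26 to 0.28) and Cyp2a5 without vehicle 1, 2, 3, 5 or 6 (0.66 to 0.72). Across the family the higher calls numbered 1 to 4 when single livers were left out, with 1 without emodin 3 and 2 without emodin 1, emodin 6 or vehicle 1, 3, 5 or 6, and total-count scaling gave 2 higher and 2 lower. The usual reporters of receptor activation did not pass: the AhR targets Cyp1a1 (0.28, edgeR adjusted p = 0.662) and Cyp1a2 (0.28, 0.306), the CAR target Cyp2b10 (0.70, 0.519), the PXR target Cyp3a11 (0.05, 0.887) and the NRF2 target Nqo1 (0.14, 0.632). Cyp2b10 differed between livers, with 5.48, 3.47, 27.0 and 27.1 CPM in emodin 1, 3, 6 and 7 against 5.54 to 19.04 CPM. Of 47 phase II enzymes 0 were higher and 1 lower (2.13%, background 2.94%), and of 21 NRF2 targets 0 were higher and 1 lower (4.76%). The latter was glutathione reductase, Gsr, at 47.0 to 56.7 CPM against 57.2 to 65.2 CPM (-0.29, edgeR adjusted p = 0.015), whereas the other emodin livers held 67.3 to 92.9 CPM. Its call was lost without emodin 3 (-0.28).

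**Figure D2:**
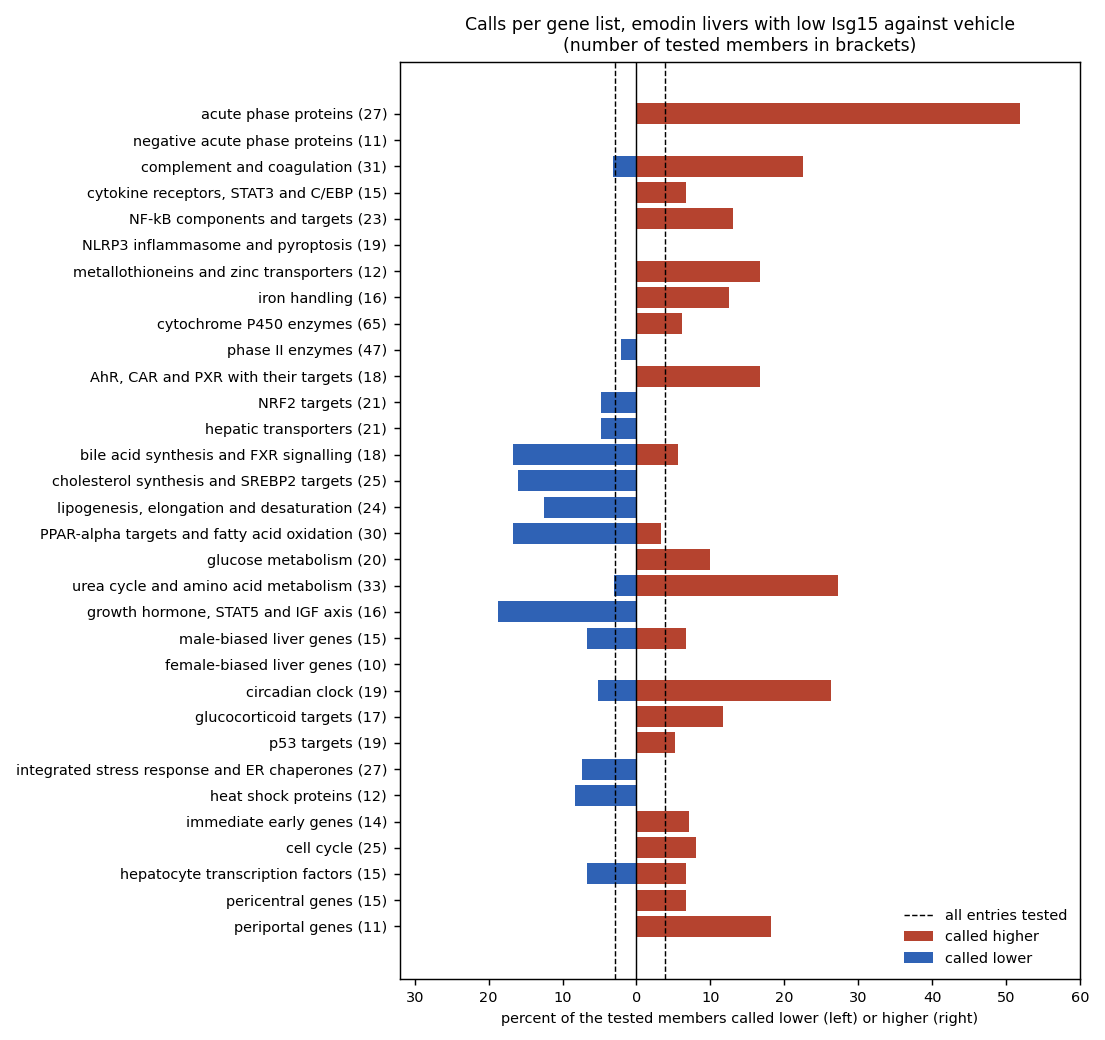
Percent of the tested members of each gene list that were called higher or lower in the chosen emodin livers against vehicle. Dashed lines mark the share over all entries, 3.87% higher and 2.94% lower, and the acute phase list, with 14 of 27 members higher, stands farthest from its line.

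Of 25 genes of sterol synthesis tested, 4 fell and 0 rose (background 2.94% lower) and 21 did not pass. Of the 25, 23 lay below 0, and the median was -0.36. Sc5d, which makes the sterol double bond late in the pathway, stood at 379, 340.4, 286 and 279.8 CPM against 508 to 770.3 CPM, median 609 (-0.90 ± 0.12, 1.87-fold, edgeR adjusted p = 0.000791). Stard4, a carrier of cholesterol between membranes, stood at 97.9, 92.4, 76.2 and 88.4 CPM against 125 to 163 CPM, median 141 (-0.68 ± 0.09, edgeR adjusted p = 0.000755). Hmgcs1, the synthase of an early step, stood at 161, 120.5, 106 and 113 CPM against 191 to 539 CPM with a median of 296 (-1.28 ± 0.26, 2.43-fold, edgeR adjusted p = 0.0154). No chosen liver overlapped the vehicle range in any of the 3. Hmgcs1 lost its call without emodin 3 (-1.26), emodin 6 (-1.21) or both muscle-bearing livers (-1.26), and the number of lower genes was 2 without emodin 3, emodin 6 or both, and 8 without vehicle 3. For Hmgcs1 the other emodin livers held 179 to 408 CPM, overlapping the vehicle range, whereas for Sc5d they held 247 to 284 CPM.

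SREBP2 drives this pathway through the sterol regulatory element, so the promoter of the gene with the largest fall is shown with matches to TCACNCCAC in capitals (RefSeq, GRCm38.p6, both strands searched).
Hmgcs1 (chr13:119690101-119690350, + strand): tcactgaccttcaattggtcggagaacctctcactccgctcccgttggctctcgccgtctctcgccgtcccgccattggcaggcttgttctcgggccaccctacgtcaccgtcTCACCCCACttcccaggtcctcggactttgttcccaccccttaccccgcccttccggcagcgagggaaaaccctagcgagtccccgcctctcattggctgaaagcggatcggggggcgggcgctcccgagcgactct
The Hmgcs1 window holds 1 match and the Sc5d window 0, and 1.05% of the 32851 windows hold at least 1. The letters alone do not show binding.

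Of 24 genes of lipogenesis, elongation and desaturation, 3 were lower (background 2.94%), 0 were higher and 21 did not pass (median -0.14). The polyunsaturated fatty acid elongase Elovl5 stood at 289, 257, 294 and 289 CPM against 408 to 608 CPM, median 465 (-0.80 ± 0.10, edgeR adjusted p = 0.000767), and the other emodin livers held 144 to 192 CPM. Elovl3 (-0.96), an elongase of saturated chains, and the desaturase Fads1 (-0.28) were the other two. Without emodin 6 only Elovl5 remained, Elovl3 being then at -0.99 and Fads1 at -0.22. Both also lost their calls without emodin 1 (-0.99 and -0.28), Elovl3 without vehicle 3 (-0.94) and Fads1 without emodin 3 (-0.29). Of 30 PPAR-alpha targets and fatty acid oxidation genes, 5 were lower (16.7%, background 2.94%), 1 was higher (3.33%, background 3.87%) and 24 did not pass. Abcd2, which carries very long fatty acids into peroxisomes, stood at 20.7, 14.3, 20.4 and 12.6 CPM against 28.3 to 62.9 CPM, median 38.1 (-1.23 ± 0.21, edgeR adjusted p = 0.00593), clear of the vehicle range. The thiolase Acaa1b (-0.51), the carnitine transferase Crot (-0.59), Hadhb (-0.29) and the peroxisomal transporter Abcd3 (-0.32) were also lower, and the transcription factor Creb3l3 was higher (0.25). Lower members numbered 2 without emodin 1 and 3 without emodin 6 or emodin 7, and Crot lost its call without emodin 1 (-0.55) or emodin 7 (-0.47).

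Of the bile acid genes, Hsd3b7, the enzyme that follows the first hydroxylation of cholesterol, was lower, at 235, 229, 239 and 159 CPM against 283 to 367 CPM, median 327 (-0.57 ± 0.11, edgeR adjusted p = 0.00628). Emodin 7 was lower than the other 3, and none overlapped the vehicle livers. Cyp7a1, the rate-limiting enzyme, did not pass (-0.43, edgeR adjusted p = 0.553). Of 18 genes of bile acid synthesis and FXR signalling, 3 were lower (16.7%, background 2.94%) and 1, Cyp27a1, was higher (5.56%, background 3.87%). The lower ones were Hsd3b7, the FGF co-receptor Klb (-0.51) and the nuclear receptor Nr5a2 (-0.40). A single lower member remained without emodin 1, emodin 3 or emodin 6, and Nr5a2 was then at -0.39, -0.41 and -0.37, past the threshold in none of the 3 cases. The bile salt export pump Abcb11 was the 1 lower gene of 21 transporters (4.76%, background 2.94%). It stood at 362 to 485 CPM against 448 to 703 CPM (-0.46, edgeR adjusted p = 0.0254). Abcb11 lost its call without emodin 1 (-0.43), emodin 3 (-0.41) or emodin 7 (-0.47).

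Of 33 enzymes of the urea cycle and of amino acid metabolism tested, 9 were higher (background 3.87%), 1 was lower (2.94%) and 23 did not pass. Of the 33, 29 lay above 0, and the median was 0.25. Asl, which splits argininosuccinate to arginine, stood at 777, 673, 830.2 and 986 CPM against a vehicle range of 353 to 519.8 CPM, median 413 (0.94 ± 0.12, 1.92-fold, edgeR adjusted p = 0.000727). Nags, which makes the activator of the first step, stood at 40.045, 42.7, 41.3 and 38.0 CPM against 23.8 to 33.2 CPM (0.49 ± 0.08, edgeR adjusted p = 0.00236). Arg1, which releases urea, stood at 1923, 1582, 1762 and 1786 CPM against 1191 to 1443 CPM (0.46 ± 0.07, edgeR adjusted p = 0.00295). These 3 were higher in every chosen liver than in any vehicle liver, while the other urea cycle enzymes Cps1 (0.25, edgeR adjusted p = 0.237), Otc (-0.07, 0.585) and Ass1 (0.34, 0.155) did not pass.

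Among the catabolic enzymes, tryptophan dioxygenase Tdo2 stood at 2558, 2630.0, 2862 and 2555 CPM against 1609.5 to 2180.4 CPM (0.51, edgeR adjusted p = 0.00555). Hpd, of tyrosine breakdown, stood at 1939, 1889.7, 2235 and 2133 CPM against 1277 to 1747 CPM (0.45, edgeR adjusted p = 0.00514). The proline oxidase Prodh (0.51), the serine dehydratase Sds (0.77) and the alanine aminotransferase Gpt (0.30) were also higher, and the glyoxylate aminotransferase Agxt was lower (-0.23). Without emodin 6 or emodin 7 the list held 6 higher genes, Sds without emodin 6 was at 0.66 and lost its call, and no gene was called lower when any 1 of the emodin livers was left out. Among the glucose genes, the gluconeogenic phosphatase Fbp1 was higher (0.24, edgeR adjusted p = 0.0497), and it lost its call when any 1 of the 12 livers was left out (0.21 to 0.26).

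**Figure D3:**
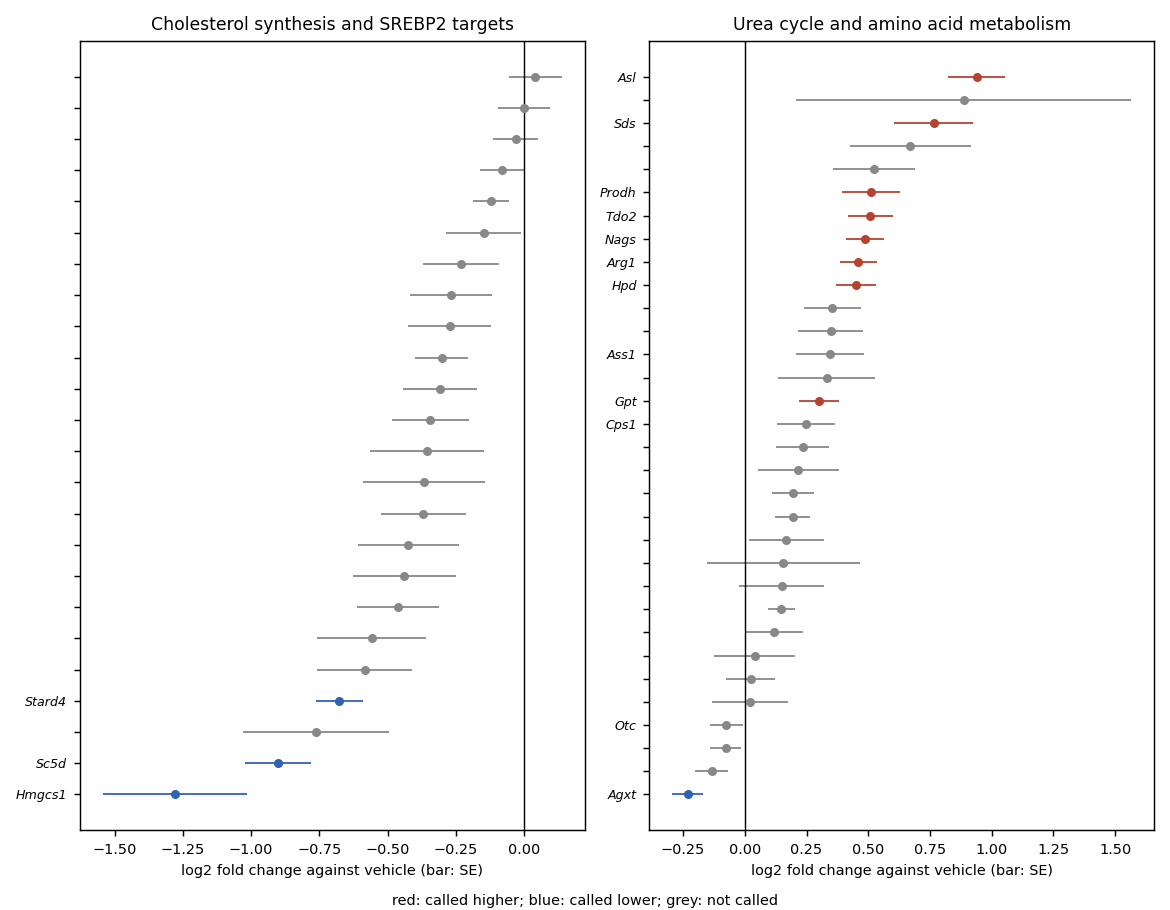
Difference between the 4 chosen emodin and 8 vehicle livers (log2 fold change, bars ± SE) for tested genes of sterol synthesis and of urea and amino acid metabolism, with called genes in colour, others in grey, and names at the genes described in the text; 1 called gene of each list is not shown. Sterol genes lie mostly below 0, with Hmgcs1 at -1.28 and Sc5d at -0.90, and amino acid genes mostly above, with Asl at 0.94.

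Growth hormone signalling genes held the largest fall by the rule for named genes. Bcl6, a transcriptional repressor that opposes STAT5 in liver, stood at 14.0, 13.9, 22.8 and 9.22 CPM in emodin 1, 3, 6 and 7 against a vehicle range of 39.8 to 83.9 CPM with a median of 75.7. The groups were well apart (-2.13 ± 0.31, 4.38-fold, edgeR adjusted p = 0.00314), and the other emodin livers held 6.11 to 18.0 CPM. Socs2, a STAT5 target that dampens growth hormone signals, stood at 3.68, 4.55, 3.26 and 9.49 CPM against 8.09 to 34.9 CPM, median 21.5 (-1.93 ± 0.47, edgeR adjusted p = 0.0366), with emodin 7 inside the vehicle range. Nrep, a small cytoplasmic protein, was the third lower gene of the 16 tested (-1.36, edgeR adjusted p = 0.0434), and 0 were higher. The share called lower was thus 18.8%, against 2.94% over all entries. Cish (0.94, edgeR adjusted p = 0.14), Igf1 (-0.03, 0.897) and the receptor Ghr (-0.16, 0.211) did not pass. Only Bcl6 remained without emodin 1, 3 or 6 or vehicle 1 or 3. Socs2 was at -1.79, -1.86 and -1.75 without emodin 1, 3 and 6, and lost its call also without vehicle 1, 3, 5 or 8 (-1.91 to -1.83). Nrep lost its call without any of the 4 emodin livers (-1.45 to -1.20) and without vehicle 1, 2, 3 or 7 (-1.41 to -1.24). Bcl6 lies at chr16:23965052-23988852 (mm10). Its promoter window is shown because of its place in STAT signalling, with matches to TTCNNNGAA, the core motif of STAT factors, in capitals (RefSeq, GRCm38.p6; the motif reads the same on both strands).
Bcl6 (chr16:23988853-23989102, - strand): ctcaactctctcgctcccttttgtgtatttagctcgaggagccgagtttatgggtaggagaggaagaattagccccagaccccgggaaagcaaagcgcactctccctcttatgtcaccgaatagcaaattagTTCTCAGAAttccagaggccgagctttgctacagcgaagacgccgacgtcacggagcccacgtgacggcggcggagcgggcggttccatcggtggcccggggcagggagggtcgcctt
The window holds 1 match, 7.02% of the 32851 windows hold at least 1, and the windows of Lrg1, Serpina3n and Saa4 hold 0. Of 15 male-biased liver genes 1 was higher (6.67%, background 3.87%) and 1 lower (6.67%, background 2.94%), with a median of 0.46 and 4 higher without emodin 7. Of 10 female-biased genes tested none passed (background 6.8% in both directions together).

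Clock genes were called in both directions. Nr1d1 (REV-ERB alpha), the repressor arm of the clock, stood at 31.3, 42.1, 28.3 and 17.4 CPM against 61.95 to 85.0 CPM, median 78.4, in the vehicle livers (-1.35 ± 0.18, 2.55-fold, edgeR adjusted p = 0.00128). Per3, a period protein, stood at 33.4, 32.7, 27.7 and 36.8 CPM against 16.1 to 26.5 CPM, median 18.9 (0.72 ± 0.11, edgeR adjusted p = 0.00242). In neither gene did the groups overlap. The other emodin livers held 25.9 to 85.5 CPM of Nr1d1 and 13.8 to 21.1 CPM of Per3, each overlapping the vehicle range. Of 19 clock genes, 5 were higher (26.3%, background 3.87%) and 1 was lower (5.26%, background 2.94%). The higher ones included Per3, Cry2 (0.38), Tef (0.34) and Per2 (0.49). The activator Arntl (0.10, edgeR adjusted p = 0.878) and the output factor Dbp (0.10, 0.776) did not pass. Higher members numbered 3 without emodin 1 or vehicle 3, 2 without emodin 3 and 3 with total-count scaling.

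Several other genes among the largest falls code for receptors, channels and matrix proteins. Nr3c2, the mineralocorticoid receptor, stood at 10.99, 5.62, 5.52 and 6.05 CPM against 15.4 to 21.8 CPM, median 16.9 (-1.32 ± 0.18, edgeR adjusted p = 0.000933), with emodin 1 above the other 3. Aqp8, the water channel of the bile canaliculus, stood at 56.0, 37.7, 39.0 and 26.6 CPM against 64.9 to 147 CPM, median 97.9 (-1.34 ± 0.22, edgeR adjusted p = 0.00534). Both were apart from every vehicle liver. Adamts6, a secreted metalloprotease, stood at 0.942, 1.09, 0.715 and 1.68 CPM against 2.02 to 3.57 CPM (-1.31, edgeR adjusted p = 0.00514), while the other emodin livers held 2.7 to 5.23 CPM, within or above the vehicle range. Spon2, a matrix protein, was at 0.988 to 2.61 CPM against 2.92 to 8.07 CPM (-1.36, edgeR adjusted p = 0.0254), and its call was lost without emodin 1 (-1.37), 6 (-1.40) or 7 (-1.14). Nes, an intermediate filament protein, was at 0.74 to 1.23 CPM against 1.87 to 5.65 CPM (-1.48, edgeR adjusted p = 0.00904). Vehicle 2, which carries muscle RNA, was the highest liver for Nes, and without both muscle-bearing livers the difference was -1.33 (edgeR adjusted p = 0.00758).

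Stress and growth lists gave 1 or 2 calls each, beside background shares of 2.94% lower and 3.87% higher. Of 27 genes of the integrated stress response and ER chaperones, 2 were lower (7.41%) and 0 higher. The lower ones were the transcription factor Atf5 (-0.57) and the chaperone Pdia4 (-0.40), and 4 were lower without vehicle 2. Of 12 heat shock genes 1 was lower (8.33%, Bag3, -0.56), and of 19 p53 targets 1 was higher (5.26%, Btg2, 0.79). Of 25 cell cycle genes 2 were higher (8%), Ccne1 (1.14) and the ribonucleotide reductase subunit Rrm2 (0.81). Apart from Atf5 these calls were fragile. Pdia4, Btg2, Bag3 and Ccne1 each lost theirs without emodin 6 (-0.42, 0.78, -0.49 and 1.08) and without emodin 3 (-0.41, 0.82, -0.55 and 1.05), and Rrm2 without emodin 6 (0.71).

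A stretch of chromosome 4 held many of the largest rises, and there the 4 livers differed among themselves. Of the 10 largest rises, 6 (Bspry, Zfp37, Zfp618, Kif12, Orm3 and Mup17) lie in a window of 5 Mb, chr4:59356162-64356162 (mm10), which runs from 4 Mb before to 1 Mb after the start of Orm3. The window was drawn after the values were seen, so it has no test. It holds 49 of the 13184 annotated entries tested. Of the 49, 10 were higher (20.4%, background 3.87%) and 0 lower (background 2.94%). The window also holds 9 of the 55 annotated genes called at least 2-fold higher. Zfp37, a zinc finger protein, stood at 2.43, 5.92, 14.3 and 1.77 CPM in emodin 1, 3, 6 and 7 against 0.1 to 1.07 CPM, median 0.314, in the vehicle livers (3.99 ± 0.58, 15.9-fold, edgeR adjusted p = 0.00238). Rgs3, a regulator of G-protein signalling, stood at 9.45, 24.5, 37.8 and 21.0 CPM against 3.42 to 8.58 CPM, median 5.82 (1.96 ± 0.30, edgeR adjusted p = 0.00387). Mup17, a major urinary protein, stood at 949, 1133, 1754 and 546 CPM against 79.8 to 380.5 CPM, median 213 (2.31 ± 0.43, edgeR adjusted p = 0.0113). In these 3 genes emodin 6 was highest and emodin 3 second, and every chosen liver lay above the vehicle range. Rgs3, Mup13 and Mup18 were picked after their values were seen. Mup13 stood at 1574, 3896, 3419 and 1107 CPM against 693 to 1210 CPM (1.37, edgeR adjusted p = 0.0146). Mup18 stood at 1424, 2877, 2246 and 1933 CPM against 742 to 1557 CPM (1.13, edgeR adjusted p = 0.00833). Emodin 3 was highest for both, while emodin 7 (Mup13) and emodin 1 (Mup18) lay inside the vehicle range. Mup13 lost its call in 2 of the 12 fits that left out 1 liver. The major urinary protein genes are near-identical copies, so their counts are uncertain one by one.

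For several neighbours, emodin 6 or emodin 3 and 6 carried most of the difference. Zfp618 stood at 0.514, 14.8, 36.8 and 4.34 CPM against 0.7 to 3.17 CPM (3.23, edgeR adjusted p = 0.034), with emodin 1 under the lowest vehicle liver, and was at 2.13 without emodin 6. Bspry stood at 0.171, 3.49, 7.21 and 0.988 CPM against 0 to 0.734 CPM (4.48 ± 1.11, edgeR adjusted p = 0.0365) and was at 3.55 without emodin 6 and 4.39 without emodin 3. Kif12, a kinesin, stood at 0.542, 0.231, 9.34 and 0.599 CPM against 0.133 to 0.513 CPM (2.91, edgeR adjusted p = 0.0485), so its call was a matter of emodin 6, without which it was at 0.35. Orm3 stood at 0.942, 1.36, 9.18 and 25.5 CPM against 0.663 to 2.41 CPM (2.66, edgeR adjusted p = 0.0456) and was at 1.40 without emodin 7 and 2.67 without emodin 6. None of these losses was limited to emodin livers. Zfp618 lost its call also without emodin 3 (3.21) and without vehicle 1, 2, 3, 5, 7 or 8 (3.12 to 3.23), Bspry without vehicle 1, 3, 5, 6, 7 or 8 (4.29 to 4.59), and Kif12 (2.77 to 2.997) and Orm3 (2.55 to 2.80) without any 1 of the 8 vehicle livers. Genes chosen after their values were seen show the same liver. Whrn was at 18.5 CPM in emodin 6 against 0.371 to 0.569 CPM in the other 3 and 0.267 to 0.754 CPM in the vehicle livers, and the matrix protein Tnc was at 29.4 CPM in emodin 6 against 0.449 to 0.571 CPM and 0.526 to 1.27 CPM. Neither passed the test (edgeR adjusted p = 0.0502 and 0.081). What the livers share in this stretch was not tested.

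**Figure D4:**
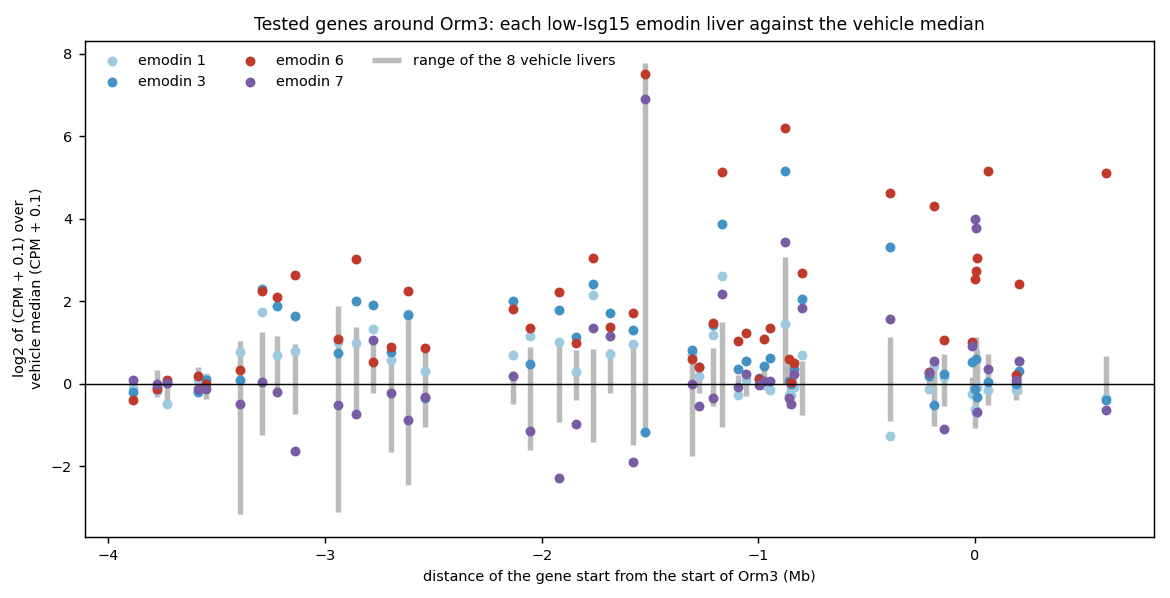
Level of each tested gene in the chromosome 4 window in each chosen emodin liver, as log2 of CPM plus 0.1 over the vehicle median, against its distance from the Orm3 start in Mb. Grey bars give the range of the 8 vehicle livers. Emodin 6, with emodin 1, 3 and 7 at several genes, rises above them over neighbouring genes.

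Markers of other liver cells gave almost no calls. Of 14 neutrophil markers 5 had enough counts to be tested, and 1 of these was higher (20%, background 3.87%). It was Prtn3, a protease of neutrophil granules, at 0.913, 1.32, 2.19 and 3.17 CPM against 0 to 0.461 CPM (3.01 ± 0.52, edgeR adjusted p = 0.00466), with no overlap. Other neutrophil markers were not called: S100a8 (0.16), S100a9 (-0.15) and Csf3r (-0.18) did not pass, and Ly6g, Mpo and Elane stood at or under 0.0462 CPM in the chosen livers and at or under 0.259 CPM in the vehicle livers. The neutrophil list summed to 3.82 to 7.84 CPM against 1.55 to 7.06 CPM. Kupffer cell and macrophage markers summed to 257 to 382 CPM against 167 to 723 CPM. Of 14 lymphocyte markers 0 were called (background 2.94% lower) although 14 lay below 0, with a median of -0.75. They summed to 6.61 to 11.8 CPM against 9.12 to 25.9 CPM, which overlap. Levels were low, and 10 of these markers stayed under 1 CPM in every chosen liver. In bulk liver, fewer cells of a type and less RNA per cell cannot be told apart.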

How the data were processed

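Liver RNA-seq of 16 mouse libraries was analysed from 1 table of estimated counts per gene, which the authors deposited as whole numbers. Per the submitters' processing notes, reads were handled with HTSeq 0.6.1, Cufflinks 2.2.1, HISAT2, cutadapt 1.9.1 and, on mm10, SAMtools 0.1.19; the role of each and the use of strand are not given in the sources used here, so antisense and overlapping genes are uncertain. The table holds 27446 entries, of which 5613 have no Ensembl identifier and took 4.03 to 4.73% of the counts; library totals ran from 28292161 to 48165643 counts. Per the labels, 1 µg of RNA was used and mice were acclimatised for 7 days.

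The rule used count divided by column total, scaled to 1000000 (CPM). Of the libraries, 4 emodin and 8 vehicle entered edgeR 4.0.16 (R 4.3.3): filterByExpr, TMM scaling, robust quasi-likelihood test, Benjamini-Hochberg adjustment over all entries, call at adjusted p under 0.05. Albumin's share was tested by exact permutation. On simulated counts for 14633 genes with 4 against 8 libraries, 87 of 100 2-fold and 97 of 100 4-fold changes were recovered, with 9 false calls. The changed genes were drawn only from those above 1 CPM, and the spread was the fitted dispersion of each gene. Genes with lower levels, and livers that differ as a whole within a group, were not simulated. Members and gene lists were chosen with earlier results of these data known. Some chromosome 4 genes were picked after their values were seen, apart from the naming rule that follows. Genes named are the 10 largest called rises and 10 largest called falls with a mean of at least 2 CPM in the higher group and an Ensembl identifier, up to 3 called members of each list by smallest p, and a fixed panel; other list members are named where a count of calls is broken down. Alternatives were DESeq2 1.42.0, limma 3.58.1 (voom, array weights), other scalings, filters and limits of Isg15, all 8 emodin livers, a replicate block, each liver left out and both muscle-bearing livers left out. The 4 emodin livers above the Isg15 limit entered no test but that of all 8 and the fit of all 16 libraries. Of 15 promoters looked up by symbol, 10 matched. No 2 libraries held identical counts. A few results are not reported here.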

Additional observations from a re-analysis of the deposited data

Results flagged for a closer look

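In each group of 4 or 8 livers, the highest and lowest level of each named gene was set against the others with Dixon's test, which chance alone passes in about 1 in 20 groups. Of 176 groups, 17 stood out. In the chosen emodin livers, Nr3c2 was high in emodin 1 (10.99 CPM), Kif12 high in emodin 6 (9.34 CPM), Nrep low in emodin 6 (3.24 CPM), Hsd3b7 low in emodin 7 (159 CPM) and Elovl5 low in emodin 3 (257 CPM). Isg15, which chose the livers, was high in emodin 6 (7.15 CPM after scaling) and in vehicle 4 (7.31 CPM). In the vehicle livers, vehicle 4 was high for Hmgcs1 (539 CPM), Bspry (0.734 CPM) and Zfp37 (1.07 CPM), and vehicle 8 for Saa2 (46.5 CPM), Orm2 (24.1 CPM) and Cyp2b10 (19.04 CPM). Vehicle 7 was high for Rrm2 (12.3 CPM) and vehicle 2 for Nes (5.65 CPM). The summed muscle markers stood out in emodin 7 (1411 CPM) and vehicle 2 (4836 CPM).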

How the results depend on the processing

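Under total-count scaling the calls were 375 higher and 685 lower. DESeq2 called 1613 entries, 802 of them lower and 204 at least 2-fold. All 8 emodin livers gave 1884 calls, 1102 higher and 782 lower, with 376 at least 2-fold. Array weights gave 1547 calls (873 higher, 674 lower), and a fit of all 16 libraries gave 489 (307 higher, 182 lower). The cause was not tested. With the replicate number as a block the calls were 157, 92 higher and 65 lower, with 38 at least 2-fold; in effect only livers that share a number inform this fit. Deviations of same-numbered livers from their group means correlated at -0.025, 0.066, -0.055 and -0.13, and 0 of 4 emodin livers correlated best with its own number. So few livers cannot settle whether the numbers pair them.

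With 1 liver left out the calls ranged from 435 to 1128, the higher ones from 266 to 636, the lower ones from 161 to 492 and those of at least 2-fold from 78 to 148. The albumin difference ranged from -1.83 to -1.35 percentage points. Of 67 named calls, 17 held in all 28 alternatives: Bcl6, Nr1d1, Aqp8, Nr3c2, Zfp37, E030018B13Rik, Lrg1, Saa4, Serpina3n, Il1r1, Por, Hsd3b7, Stard4, Sc5d, Elovl5, Asl and Nags. Signs turned with all 8 emodin livers for Casp1 (0.17), Cyp1a2 (-0.052), Cyp3a11 (-0.41), Fbp1 (-0.088), Gsr (0.12) and Pdia4 (0.067), with array weights for Cyp2b10 (-0.20) and Cyp3a11 (-0.077), and with total-count scaling for Rela (-0.016) and Cyp3a11 (-0.0058). Cyp3a11 turned also without both muscle-bearing livers (-0.078), without emodin 6 (-0.057) and without emodin 7 (-0.032), and reached 0.15 without emodin 3. Limits of 10 or 40 CPM for Isg15 chose the same 4 livers. Entries with few counts have wide errors, so genes near 1 CPM are the least precise.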

Other observations

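On chromosome 4, near Whrn and Tnc, 2 more genes were highest in emodin 6 and did not pass the test of the chosen livers. Akna, an AT-hook protein, reached 24.5 CPM in emodin 6, while the other 3 chosen livers held 1.77 to 2.71 CPM and vehicle livers ranged from 2.66 to 5.14 CPM (edgeR adjusted p = 0.243). Tmem268 reached 21.5 CPM in emodin 6, with 4.97 to 5.91 CPM in the other 3 against 3.35 to 5.34 CPM (edgeR adjusted p = 0.0568). The emodin livers with high interferon genes held 7.92 to 9.26 CPM of Tmem268, above every vehicle liver, and the comparison of all 8 emodin livers passed (1.10, edgeR adjusted p = 0.00978). Both genes were picked after their values were seen.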
